A study of Mus musculus with 6 samples.

Results

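The 10 genes described here encode the machinery that cuts and rejoins antigen receptor genes in developing lymphocytes, and were taken as a fixed set of symbols (Rag1, Rag2, Dntt, Prkdc, Lig4, Xrcc4, Dclre1c, Nhej1, Xrcc5 and Xrcc6) from a table of 22322 genes. All 10 were in the table and all 10 passed the filter on low counts. Expression was measured by RNA-Seq in CD4+CD8+ double-positive (DP) thymocytes sorted from the thymus of untreated mice aged 4 to 7 weeks and of mixed sexes on the C57BL/6 background, with 3 libraries from Paxbp1 fl/fl littermates (control) and 3 from Paxbp1 fl/fl mice that also carried an Lck-cre transgene (Paxbp1 cKO). In both genotypes the Paxbp1 alleles were floxed around exon 8. Cre driven by Lck acts from the double-negative (DN) stage on, so every later thymocyte stage, not DP cells alone, developed under the deletion. The sources used here do not say whether each library came from a separate mouse, and the p-values therefore measure the spread between these libraries.

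V(D)J recombination begins when the RAG1 and RAG2 proteins, which act together as one recombinase, cut DNA beside V, D and J gene segments. The Ku heterodimer (Xrcc5 encodes Ku80 and Xrcc6 encodes Ku70) then binds the broken ends and recruits the kinase DNA-PKcs (Prkdc), which activates the nuclease Artemis (Dclre1c) to open the hairpins at the coding ends. TdT (Dntt) adds untemplated bases, and DNA ligase IV (Lig4) with its partners XRCC4 (Xrcc4) and XLF (Nhej1) seals the joint. DP thymocytes are the cells that rearrange the Tcra locus, and they express Rag1, Rag2 and Dntt until positive selection turns these genes off.

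The libraries held between 18963775 and 26252248 counts, and values are given as CPM (counts scaled to the size of the library) after TMM normalization of library size, unless stated otherwise. For each of 11488 genes edgeR's quasi-likelihood test set the 3 control libraries against those labelled cKO, with Benjamini-Hochberg adjustment, and a gene is said to have risen or fallen only at an adjusted p below 0.05. The targeted gene Paxbp1 was read at 40.1, 16.3 and 15.5 CPM in control libraries 1, 2 and 3 and at 38.8, 47.1 and 49.6 CPM in the libraries labelled cKO 1, 2 and 3 (log2 fold change 0.92, edgeR adjusted p = 0.0977). The counts are per gene and not for exon 8, so this does not check the genotype labels, and each direction below rests on those labels. Of 13 markers of DP thymocytes all 13 were detected in every library, among them Cd4 (162 to 292 CPM), Cd8a (1375 to 2140 CPM) and Lck (3310 to 4649 CPM). At an adjusted p below 0.05, 6 of these markers fell (5.89% of all tested genes did) and 0 rose (4.47% of all did), with a median log2 fold change of -0.42 where the median over all tested genes was -0.0017. Without the library labelled cKO 3 only 1 marker fell (0.666% of all genes), and without control library 2 only 2 (235 of 11869 genes). Without control library 1 as many as 9 fell (8.68% of all genes). Of 12 macrophage markers 5 of 9 tested rose (4.47% of all tested genes did). The summed level of the 12 went from between 6.99 and 25.9 CPM in the control libraries to between 49.4 and 71.8 CPM in the libraries labelled cKO. Mertk had no count in any library. Of 16 S and G2/M phase genes 7 rose (Mcm2 to Mcm7 and Pcna) and 0 fell, where 4.47% of all tested genes rose and 5.89% fell. Without the library labelled cKO 3, 1 of them rose (0.359% of all genes did). Mki67, Top2a, Ccnb1, Cdk1, Aurkb, Bub1 and Ccna2 did not pass (edgeR adjusted p between 0.433 and 0.918), nor did Rrm2 and Tyms. The part of macrophage RNA and of cell cycle stage in the differences below was not tested. B cells also use Rag1, Rag2 and Dntt as progenitors, and 10 of their markers summed to between 43.4 and 48.5 CPM in the control libraries and between 29.4 and 32.1 CPM in the libraries labelled cKO. Nearly all of that was Cd79b, 1 of 3 tested, which fell (40.2 to 45.0 against 23.3 to 28.2 CPM, edgeR adjusted p = 0.0194) and is named after its values were seen. Each of the others was at most 3.07 CPM in any library, and the lineage factor Pax5 at most 0.18 CPM. The part of B cell RNA in the differences below was not tested.

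Per length of gene model, the 10 genes covered a wide range. The FPKM values that the authors deposited put Dntt first, at 945 to 1246 FPKM in the control libraries, followed by Xrcc6 at 339 to 395 and Rag1 at 290 to 388, which overlapped each other. Rag2 stood at 62.0 to 126 FPKM. Lig4 (18.4 to 38.9 FPKM) overlapped both Dclre1c (24.1 to 39.0 FPKM) and Xrcc4 (18.6 to 22.3 FPKM), which did not overlap each other. Xrcc5 (11.7 to 17.3 FPKM) overlapped Nhej1 (7.30 to 12.2 FPKM). Prkdc, whose longest coding transcript has 12647 nt and is the longest of the 10, was the lowest at 2.92 to 3.49 FPKM. In the libraries labelled cKO, Rag1 (170 to 236 FPKM) no longer overlapped Xrcc6 (286 to 325 FPKM). Xrcc4 (16.4 to 19.7 FPKM) overlapped Xrcc5 (15.2 to 20.8 FPKM) rather than Lig4 (28.2 to 39.9 FPKM), and Xrcc5 no longer overlapped Nhej1 (6.97 to 8.71 FPKM). Among the 15349 genes with a count, Dntt ranked 47 by mean FPKM, Xrcc6 ranked 192 and Rag1 ranked 278, whereas Prkdc ranked 8501.

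**Figure D1:**
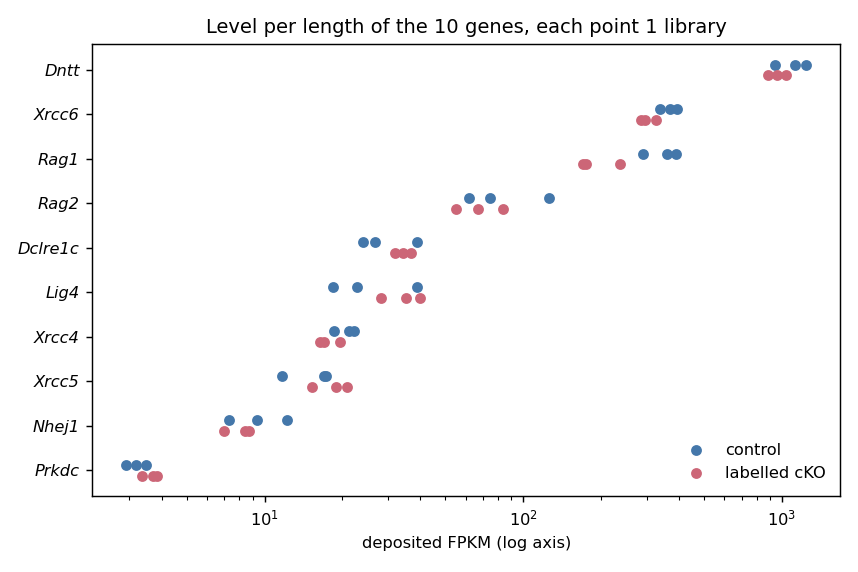
Deposited FPKM (log axis) of the 10 genes, 1 point per library, blue for the 3 control libraries and red for the 3 libraries labelled cKO. Dntt, Xrcc6 and Rag1 lay highest and Prkdc lowest, and the groups do not overlap for Rag1 and Xrcc6.

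Rag1 and Rag2 are neighbours on chromosome 2 and point toward each other. In GENCODE release M21 on mouse build GRCm38, Rag2 (ENSMUSG00000032864) lies on the plus strand from 101624718 to 101632529 and Rag1 (ENSMUSG00000061311) on the minus strand from 101638282 to 101649501, with 5752 bases between their ends. Rag1 fell and Rag2 did not pass the test, but a different response of the 2 genes was not shown (exact two-sided permutation p = 0.2 for the ratio of their counts). As a description, the 250 bases upstream of each start site are shown. They are taken from RefSeq on GRCm38.p6, at chr2:101649533-101649782 on the minus strand for Rag1 and at chr2:101624462-101624711 on the plus strand for Rag2, 5′ to 3′. Capitals mark E-boxes (CANNTG), the motif of E proteins.
Rag1: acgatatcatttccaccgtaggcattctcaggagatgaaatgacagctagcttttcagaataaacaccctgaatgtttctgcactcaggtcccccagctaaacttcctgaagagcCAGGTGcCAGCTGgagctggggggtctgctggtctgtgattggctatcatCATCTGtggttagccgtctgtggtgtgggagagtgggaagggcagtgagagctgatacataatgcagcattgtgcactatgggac
Rag2: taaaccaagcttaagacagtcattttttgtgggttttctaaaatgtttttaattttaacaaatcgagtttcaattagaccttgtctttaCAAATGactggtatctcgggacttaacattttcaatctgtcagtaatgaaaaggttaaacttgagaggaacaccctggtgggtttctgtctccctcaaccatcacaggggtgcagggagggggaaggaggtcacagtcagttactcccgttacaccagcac
The Rag1 window held 3 E-boxes and the Rag2 window 1, where 66.2% of 32851 windows of the same length held at least 1. The Rag1 window also held 1 CCAAT box (CCAAT, in 33.8% of windows) and 2 copies of the RUNX core (TGTGGT, in 14.0% of windows), the first of them sharing bases with the E-box nearest the start, and the Rag2 window held neither. GATAA was found in neither window and in 22.6% of all windows. Both strands were searched, and a match is only a match of letters. RefSeq start-site windows were at hand for 9 of the 10 genes.

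Rag1 was the only one of the 10 genes that changed at an adjusted p below 0.05. It was read at 2540, 2399 and 1950 CPM in control libraries 1, 2 and 3, and at 1114, 1539 and 1159 CPM in the libraries labelled cKO 1, 2 and 3. Every library labelled cKO lay below every control library. The mean ± S.D. of 3 libraries was 2297 ± 308 CPM in the control group and 1271 ± 233 CPM in the labelled cKO group. On the log2 scale the difference was -0.85 (standard error 0.15, 95% interval -1.19 to -0.52, edgeR adjusted p = 0.00923). This was a decrease of 44.7%, short of the 2-fold change that the study's own rule asks for besides an adjusted p below 0.05. At that threshold 5.89% of all tested genes were lower, 4.47% were higher and 10.4% changed in either direction, so 1 of 10 genes is close to the background. In bulk RNA, fewer cells that express Rag1 and less Rag1 RNA per cell cannot be told apart. The study's thresholds, put on the edgeR test used here, called 2.76% of all tested genes (1.53% higher and 1.23% lower) and 0 of the 10. The study itself used DESeq2, so these are not its own calls. Without the library labelled cKO 3 the log2 fold change of Rag1 was -0.79 and did not pass (edgeR adjusted p = 0.0656). That comparison called 1.02% of all genes, and with any other library left out Rag1 passed (edgeR adjusted p between 0.00789 and 0.0463).

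**Figure D2:**
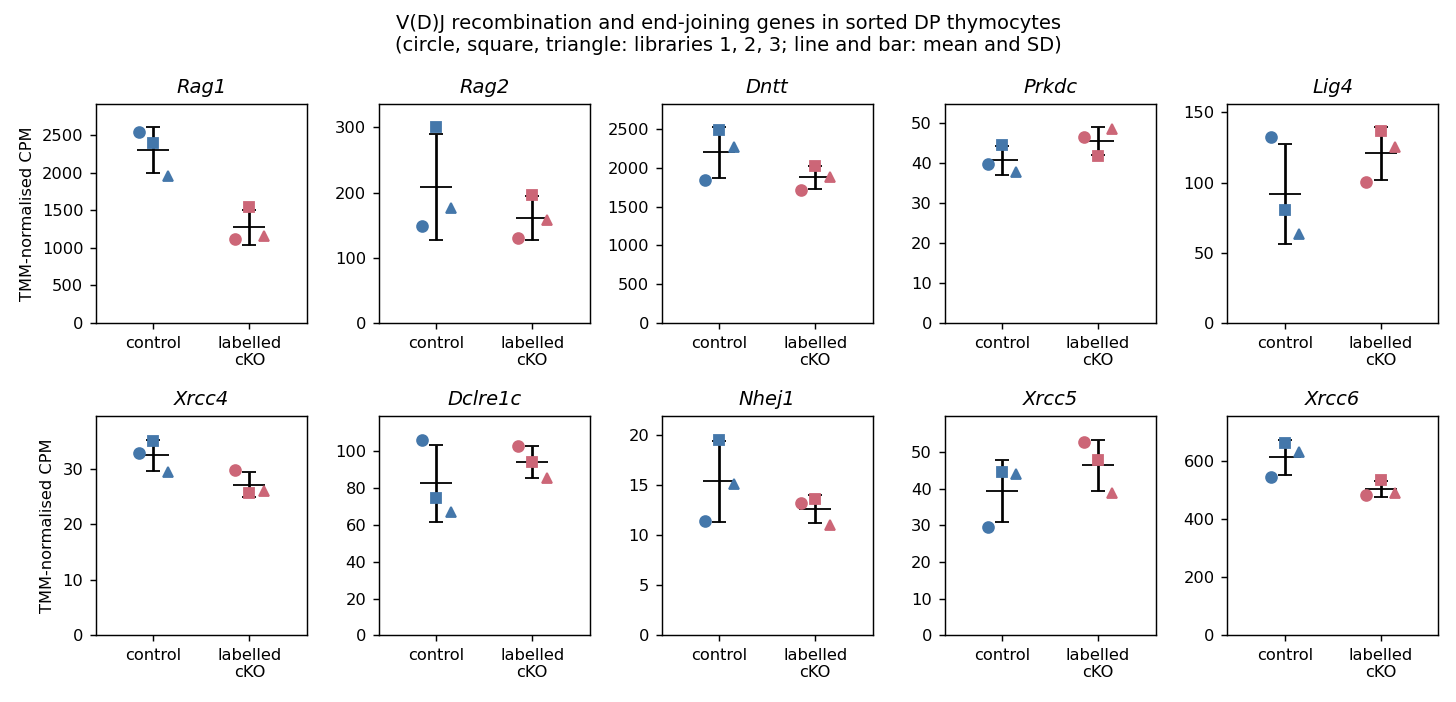
TMM-normalised CPM of the 10 genes in each library, with circles, squares and triangles for libraries 1, 2 and 3 and a line and bar for the mean and S.D. of 3 libraries. The groups are apart for Rag1 (1950 to 2540 against 1114 to 1539 CPM) and, more narrowly, for Xrcc6 (545 to 662 against 483 to 533 CPM).

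Rag2, the partner of Rag1 in the recombinase, was read at 150, 300.5 and 176 CPM in the control libraries and at 130, 197 and 157 CPM in the libraries labelled cKO. Control library 2 stood above all others and the groups overlapped. Its log2 fold change was -0.37 (standard error 0.24, 95% interval -0.91 to 0.17, edgeR adjusted p = 0.360), an interval that includes both no change and the decrease measured for Rag1. The difference in Rag2 rested on control library 2, without which its log2 fold change was -0.01 (edgeR adjusted p = 0.981). Without control library 1 the value was -0.56 (edgeR adjusted p = 0.11). The difference between the 2 genes was tested directly as the ratio of their counts within each library, which needs no scaling between libraries. The ratio of Rag1 to Rag2 counts was 17.0, 7.99 and 11.1 in the control libraries and 8.54, 7.81 and 7.36 in the libraries labelled cKO. Control library 2 lay within the range of the libraries labelled cKO, and the log2 ratio differed by -0.54 (exact two-sided permutation p = 0.2, adjusted over 3 ratios p = 0.2, the smallest p possible with 3 libraries a group being 0.1). A different response of Rag1 and Rag2 was thus not shown. On the deposited FPKM, which allow for length, the Rag1 to Rag2 ratio had a geometric mean of 4.12 in the control libraries and 2.83 in the libraries labelled cKO.

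One more gene lies across this locus. Iftap (ENSMUSG00000027165, B230118H07Rik in GENCODE M21) shares 80 of the 6608 exonic bases of Rag1 on the same strand and 208 of the 3424 exonic bases of Rag2 on the opposite strand. It was named here after its values were seen. Iftap was read at 37.4, 42.8 and 36.0 CPM in the control libraries and at 20.2, 15.7 and 11.5 CPM in the libraries labelled cKO. It fell in all comparisons with 1 library left out (edgeR adjusted p at most 0.0463), with a log2 fold change of -1.29 over all libraries (standard error 0.21, edgeR adjusted p = 0.00825). Nothing in the sources used here says whether reads were counted by strand, so reads of the shared bases cannot be assigned to one gene.

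The decrease of Rag1 was set beside that of the DP markers. The ratio of Rag1 counts to the summed counts of the 13 markers was 0.182, 0.153 and 0.139 in the control libraries and 0.104, 0.130 and 0.111 in the libraries labelled cKO. The groups did not overlap, and the log2 ratio differed by -0.45 (exact two-sided permutation p = 0.1, the smallest that 3 libraries against 3 allow, adjusted over 3 ratios p = 0.15). This ratio was added after the data were seen. Late DP and mature SP genes mark the stages at which Rag genes are shut off. Of these, 3 of 12 rose (Cd69, Nr4a1 and Ikzf2) and 0 fell, where 4.47% of all tested genes rose and 5.89% fell. Ccr7 (3.69 to 29.0 CPM) and Klf2 (21.6 to 70.6 CPM) overlapped between the groups, and so did Cd69. Cd69 kept the call only without control library 1 or the library labelled cKO 2. Nr4a1 lost it only without the library labelled cKO 3, and Ikzf2 lost it without that library or control library 2. Under limma-trend on FPKM, Cd69 and Ikzf2 did not pass. Among DN and ISP stage genes 3 of 10 tested rose (Hes1, Il2ra and Dtx1) and 0 fell, beside the same shares of all tested genes. Hes1 passed with any 1 library left out. Il2ra kept the call only without control library 1 or 2, and lost it under limma-trend on FPKM. Dtx1 kept it only without control library 1 or the library labelled cKO 2. The part of these stage genes in the level of Rag1 was not tested.

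**Figure D3:**
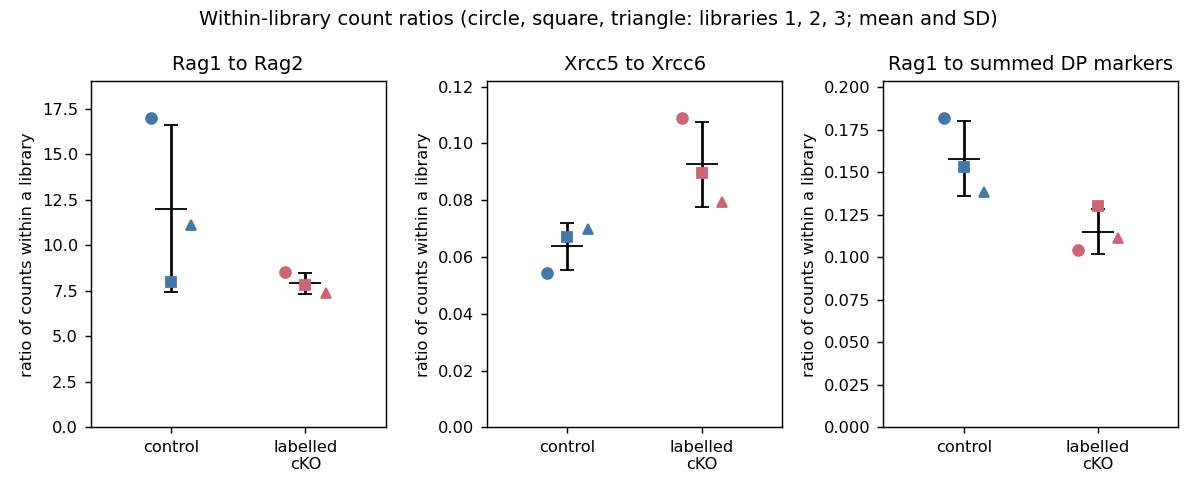
Ratios of counts within each library (vertical axes start at 0), with circles, squares and triangles for libraries 1, 2 and 3 and a line and bar for the mean and S.D. The Rag1 to Rag2 ratio overlaps between the groups (7.99 to 17.0 against 7.36 to 8.54), while the Xrcc5 to Xrcc6 ratio and the ratio of Rag1 to the summed DP markers do not.

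Dntt, which encodes the template-independent polymerase TdT, was read at 1844, 2486 and 2268 CPM in the control libraries and at 1721, 2024 and 1889 CPM in the libraries labelled cKO. Control library 1 lay within the range of the libraries labelled cKO. For Dntt the log2 fold change was -0.23 (standard error 0.13, 95% interval -0.51 to 0.06, edgeR adjusted p = 0.278). The interval ends short of that of Rag1 (-1.19 to -0.52), and the difference between the 2 genes was not tested.

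The genes for the subunits of Ku stood at different levels, and neither passed the test. Xrcc6 (Ku70) was read at 545, 662 and 630 CPM in the control libraries and at 483, 533 and 489 CPM in the libraries labelled cKO. The groups did not overlap, which held for 2 of the 10 genes and for 33.0% of all tested genes. Its log2 fold change was -0.29 (standard error 0.11, 95% interval -0.54 to -0.04, edgeR adjusted p = 0.131). Xrcc5 (Ku80) was read at 29.6, 44.5 and 44.0 CPM in the control libraries and at 52.6, 47.7 and 38.9 CPM in the libraries labelled cKO, with overlap and a log2 fold change of 0.24 (standard error 0.19, 95% interval -0.19 to 0.66, edgeR adjusted p = 0.459). Within each library the ratio of Xrcc5 to Xrcc6 counts was 0.0542, 0.0672 and 0.0698 in the control libraries and 0.109, 0.0895 and 0.0795 in the libraries labelled cKO. Every library labelled cKO lay above every control library, and the log2 ratio differed by 0.54 (exact two-sided permutation p = 0.1, the smallest possible, adjusted over 3 ratios p = 0.15). Per length the ratio was 0.041 and 0.0603 (geometric means of FPKM) in the control and labelled cKO groups, so Xrcc5 RNA was read far below Xrcc6 RNA in both. Desi1 overlaps 7.69% of the exonic bases of Xrcc6 on the opposite strand and was read at 371 to 433 CPM without passing the test (edgeR adjusted p = 0.637).

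Prkdc and Dclre1c, the kinase and the nuclease that open hairpins, did not pass. Prkdc was read at 39.8, 44.7 and 37.7 CPM in the control libraries and at 46.5, 41.8 and 48.5 CPM in the libraries labelled cKO (log2 fold change 0.16, 95% interval -0.15 to 0.48, edgeR adjusted p = 0.499). Only the library labelled cKO 2 reached into the control range. Dclre1c was read at 106, 74.6 and 67.1 CPM in the control libraries and at 103, 94.2 and 85.4 CPM in the libraries labelled cKO (log2 fold change 0.19, 95% interval -0.20 to 0.58, edgeR adjusted p = 0.529). Control library 1 was the highest of all 6. Suv39h2 overlaps 3.83% of the exonic bases of Dclre1c on the opposite strand, and it was named after its values were seen, at 28.5, 19.5 and 19.2 CPM in the control libraries and 34.1, 34.0 and 40.1 CPM in the libraries labelled cKO (edgeR adjusted p = 0.0482).

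None of the ligation genes passed. Lig4 was read at 132, 80.2 and 63.3 CPM in the control libraries and at 100, 137 and 125 CPM in the libraries labelled cKO (log2 fold change 0.40, 95% interval -0.13 to 0.93, edgeR adjusted p = 0.316). Control libraries 2 and 3 lay below every library labelled cKO, and control library 1 among them. Xrcc4, the scaffold that binds the ligase, was read at 32.7, 35.0 and 29.4 CPM in the control libraries and at 29.7, 25.6 and 25.9 CPM in the libraries labelled cKO (log2 fold change -0.26, 95% interval -0.60 to 0.09, edgeR adjusted p = 0.317). Nhej1, whose product XLF aligns the ends, was the lowest in CPM at 11.5, 19.6 and 15.2 in the control libraries and 13.2, 13.6 and 11.1 in the libraries labelled cKO (log2 fold change -0.28, 95% interval -0.82 to 0.25, edgeR adjusted p = 0.480). The groups overlapped for both. The intervals of the 8 genes other than Rag1 and Xrcc6 all included 0.

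The count of the 10 genes that passed was 0 without the library labelled cKO 3 and 5 without control library 1, with Rag1 (log2 fold change -0.78, edgeR adjusted p = 0.00789), Dntt (-0.34, edgeR adjusted p = 0.0328) and Xrcc6 (-0.37, edgeR adjusted p = 0.0219) lower. Lig4 (log2 fold change 0.75, edgeR adjusted p = 0.0132) and Dclre1c (0.41, edgeR adjusted p = 0.0493) were higher. Without control library 1 the test called 17.1% of all tested genes, 8.42% higher and 8.68% lower, and its 2 control libraries were also the most alike of the 6 pairs within a group. Control library 1 is also the control library in which Paxbp1 stood at the level of the libraries labelled cKO, and its summed level of S and G2/M genes was the lowest of the 6 libraries (5074 CPM, against up to 7886 CPM in the other two control libraries). The part of these values in the counts was not tested. Over all libraries the median log2 fold change of the 10 genes was -0.24, with 4 genes above 0 and 6 below, where the median of all tested genes was -0.0017. Without control library 2 that median was -0.05.

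**Figure D4:**
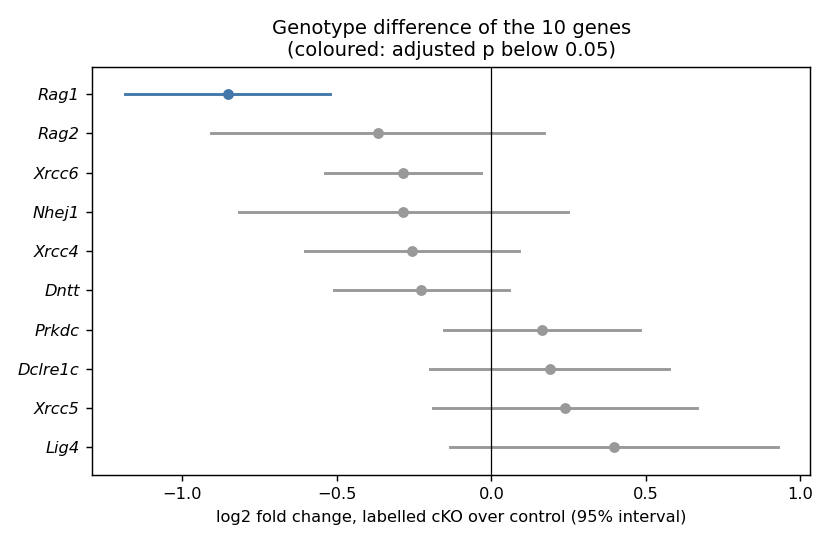
Log2 fold change (labelled cKO over control) of the 10 genes with 95% intervals from edgeR, coloured where the adjusted p was below 0.05. Only Rag1, at -0.85, is coloured, and the interval of Xrcc6 also lies below 0 (-0.54 to -0.04).

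Other genes that serve V(D)J recombination were read as 5 lists of 60 genes in all, of which 59 were tested. Of these 59 genes, 7 rose and 8 fell (4.47% and 5.89% of all tested genes), with a median log2 fold change of -0.10. The counts rested on single libraries and were 0 and 1 without the library labelled cKO 3, where 0.359% of all genes were called higher and 0.666% lower.

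Of 15 tested regulators of Rag transcription, 5 were lower and 1 was higher, with a median log2 fold change of -0.27, where 5.89% of all tested genes were lower and 4.47% higher. With 1 library left out between 1 and 6 were lower, and the list shares members with the 13 DP markers, Bcl11b among them. Satb1, a chromatin organiser needed for Rag1 and Rag2 expression in DP thymocytes, was read at 4884, 4872 and 4189 CPM in the control libraries and at 2771, 3251 and 2720 CPM in the libraries labelled cKO (log2 fold change -0.67, standard error 0.11, edgeR adjusted p = 0.00825). The groups were far apart. Bcl11b, a factor of T lineage commitment, was read at 496, 635 and 544 CPM against 312, 338 and 283 CPM (log2 fold change -0.84, edgeR adjusted p = 0.00613). Id3, an inhibitor of E proteins that is induced by TCR signals, was read at 325, 319 and 342 CPM against 162, 162 and 133 CPM (log2 fold change -1.11, edgeR adjusted p = 0.00349), and it passed with any 1 library left out. Ikzf1, which encodes Ikaros, fell by 0.40 on the log2 scale (edgeR adjusted p = 0.0287), and Gfi1, named outside the rule for named genes, by 0.49 (edgeR adjusted p = 0.0342). Foxo1, an activator of Rag genes, was the one that rose, from 118, 93.6 and 95.8 CPM to 148, 132 and 179 CPM (log2 fold change 0.58, edgeR adjusted p = 0.0366). The E protein genes Tcf3 and Tcf12 had log2 fold changes of -0.08 and -0.28, and Runx1 -0.26, with edgeR adjusted p between 0.144 and 0.696. Without the library labelled cKO 3, Id3 alone of the 15 passed, and Satb1 had an adjusted p of 0.057 and Bcl11b of 0.0508. Ikzf1 and Gfi1 passed without control library 1 and lost the call with any other library left out, and Foxo1 kept it without control library 1 or the library labelled cKO 2 and lost it under limma-trend on FPKM.

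Alternative end joining is the route that joins ends without Ku and ligase IV. Of its 8 genes 3 rose (4.47% of all tested genes did) and 0 fell (5.89% of all did), with a median log2 fold change of 0.28. Polq, which encodes the polymerase of this route, was read at 11.0, 12.3 and 16.8 CPM in the control libraries and at 22.1, 25.4 and 31.0 CPM in the libraries labelled cKO (log2 fold change 0.96, edgeR adjusted p = 0.0244). Parp2 and the flap nuclease gene Fen1, which also acts in DNA replication, rose by 0.52 and 0.51 on the log2 scale (edgeR adjusted p = 0.0384 and 0.0390). Parp1, Lig3 and Xrcc1 stood at 0.09, -0.36 and -0.05 and did not reach the threshold. All 3 calls were lost without control library 2, without the library labelled cKO 2 and without the library labelled cKO 3. Parp2 was also lost without control library 3 or the library labelled cKO 1, and under limma-trend on FPKM Polq did not pass.

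In the list of genes that sense breaks and protect their ends, 2 of 16 rose (4.47% of all tested genes did). From the same list 1 fell (5.89% of all did), and the median log2 fold change was 0.21. Rif1, which blocks resection together with 53BP1, was read at 51.2, 59.9 and 49.8 CPM in the control libraries and at 100.3, 88.9 and 95.8 CPM in the libraries labelled cKO (log2 fold change 0.83, edgeR adjusted p = 0.00685). Nbn, a subunit of the break sensor MRN, was read at 24.9, 28.6 and 29.7 CPM against 42.9, 49.2 and 56.8 CPM (log2 fold change 0.84, edgeR adjusted p = 0.0123). Its partners Mre11a and Rad50 stood at -0.17 and -0.18 on the same scale without passing (edgeR adjusted p = 0.617 and 0.426). H2ax, the histone variant phosphorylated at breaks, fell from 335, 506 and 573 CPM to 223, 235 and 211 CPM (log2 fold change -1.08, edgeR adjusted p = 0.00811), and as a member of a multigene family its reads are less certain. Atm and Trp53bp1 differed by -0.21 and 0.19, short of the threshold. Rif1, Nbn and H2ax lost the call only without the library labelled cKO 3 (edgeR adjusted p between 0.0509 and 0.0759).

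Among the accessory factors of end joining, with a median log2 fold change of -0.40, 0 of 13 rose (4.47% of all tested genes did) and 2 fell (5.89% of all did). The 2 were Dnttip1, whose product was named for its binding to TdT, at 18.1, 22.0 and 29.6 CPM in the control libraries and 9.22, 10.8 and 8.07 CPM in the libraries labelled cKO (log2 fold change -1.31, edgeR adjusted p = 0.00983), and Tdp1, which cleans blocked 3′ ends (log2 fold change -0.69, edgeR adjusted p = 0.0321). Dnttip1 lost the call only without the library labelled cKO 3, and Tdp1 kept it only without control library 1. The polymerase genes Polm and Poll and the XLF paralog Paxx stood at -0.91, -0.41 and 0.01 without reaching the threshold.

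Of 7 genes for cofactors and turnover of the RAG proteins, 1 rose (4.47% of all tested genes did) and 0 fell (5.89% of all did). Skp2, part of the ubiquitin ligase that removes RAG2 when cells enter S phase, was read at 25.7, 34.7 and 29.1 CPM in the control libraries and at 40.2, 49.2 and 55.7 CPM in the libraries labelled cKO (log2 fold change 0.70, edgeR adjusted p = 0.0354). It kept the call only without control library 1 or the library labelled cKO 1. Hmgb1 and Hmgb2, DNA-bending cofactors of the recombinase whose reads are uncertain because of near-identical pseudogene copies, had log2 fold changes of -0.10 and 0.07, and Ccna2 and Cdk2, whose products form the kinase that marks RAG2 for removal, had -0.05 and 0.27, without passing.

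The genes most like Rag1, Rag2 and Dntt were sought among 9201 other genes with a mean of at least 5 CPM, by Pearson's r of log2 CPM over the 6 libraries, as a description that carries the group difference and the depth of the libraries with it. For Rag1 they were Fibp, Cryzl1, Ptprc, Satb1 and Il17ra, with r between 0.992 and 0.998. Of these, Ptprc, Satb1 and Il17ra fell (edgeR adjusted p = 0.0321, 0.00825 and 0.0353). For Rag2 they were Adprh, Kansl2, Rnf121, Zfp54 and Dgcr2 (r between 0.972 and 0.986), and for Dntt H2-T23, Slc9a3r1, Ostf1, Ipo9 and Cd47 (r between 0.982 and 0.992), none of which passed the test. The 3 sets had no gene in common. Among the 10 genes themselves, Dntt and Xrcc6 varied most alike (r = 0.935), Rag2 and Dntt had r = 0.901, Rag1 and Rag2 had r = 0.533, and Dntt and Dclre1c varied in opposite directions (r = -0.842).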

How the data were processed

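RNA was extracted from DP thymocytes sorted by flow cytometry, and cDNA was pre-amplified and sequenced on an Illumina HiSeq2500. The authors deposited raw read counts per gene and library, and FPKM values that they scaled to gene length and library size, in 1 table. The deposited log2 ratio, p-value and FDR columns hold the authors' own comparison and were not used. The submitters' processing notes name fastp 0.18.0, Bowtie2 2.2.8, HISAT2, StringTie 1.3.1 and RSEM, and nothing in the sources used here gives the genome build, annotation or strand of counting. Gene positions are from GENCODE M21 on GRCm38, matched by Ensembl identifier.

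Genes were tested in edgeR 4.0.16 under R 4.3.3 (filterByExpr, minimum count 10 and total 15; TMM; quasi-likelihood test with genotype as the only term). The common biological coefficient of variation was 0.228. Library sizes make 1 count worth 0.0381 to 0.0527 CPM. Each pair of libraries within a group differed beyond sampling, with a chi-square of 19.7 to 68.0 for each degree of freedom, so none was counted as a duplicate. The fit was tested on simulated data. Standard errors were taken from the log2 fold change and its F statistic. Count ratios were compared by exact permutation tests. DESeq2 1.42.0, limma 3.58.1 (voom, and trend on log2(FPKM + 1)), other scalings and filters, a replicate block and each library left out served as alternatives.

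The 10 genes and the lists were chosen with earlier results of these data known. Named from the 5 lists were up to 4 genes per direction with the smallest p at an adjusted p below 0.05, and other genes of the lists are named outside that rule, with their values seen. The lists of dendritic cell, thymic epithelial, and erythroid and neutrophil markers had 0 genes that rose or fell (edgeR adjusted p below 0.05, with 1 gene at an unadjusted p below 0.05, and of 3 tested B cell markers 1 fell).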

Additional observations from a re-analysis of the deposited data

How the results depend on the processing

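The log2 fold changes and median of the 10 genes and the 3 ratios kept their sign under the alternatives run for each. That of Rag2 was only -0.01 without control library 2. The ratios were recomputed only on FPKM and with 1 library left out. The balance of the companion counts did not hold. Over all libraries 7 were higher and 8 lower, but without control library 1 there were 11 and 9, and without the library labelled cKO 1 there were 6 and 5. Among the companion genes given with values, Hmgb2 (-0.12 to 0.22), Ccna2 (-0.28 to 0.10), Xrcc1 (-0.19 to 0.05) and Paxx (-0.17 to 0.20) changed sign with 1 library left out, and none of them had passed. Under DESeq2, RLE factors, total counts only, no filter on low counts, a mean of at least 5 CPM, limma-voom and limma-trend on log2(FPKM + 1), the count of the 10 genes stayed at 0 higher and 1 lower (Rag1, log2 fold change -0.86 to -0.84), and 6 to 8 companion genes were higher and 8 or 9 lower. At an unadjusted edgeR p below 0.05, 0 of the 10 genes were higher and 2 lower. Of all 11488 tested genes, 1524 were higher and 1680 lower at that threshold, so 2 of 10 lower is close to the background. With 1 library left out in turn, between 0 and 2 of the 10 genes were higher and between 0 and 3 lower, and between 0 and 11 companion genes were higher and between 1 and 9 lower. The extremes were reached without control library 1 (highest counts) and without the library labelled cKO 3 (lowest counts), and the cause was not tested. The log2 ratio of Rag1 to Rag2 lay between -0.80 and -0.25 and that of Xrcc5 to Xrcc6 between 0.41 and 0.64 with 1 library left out, and both moved by less than the spread between replicates. Over all tested genes edgeR called 514 higher and 677 lower, DESeq2 949 and 950, limma-trend on FPKM 659 and 578, and leaving out 1 library between 42 and 1000 higher and between 78 and 1030 lower. Same-numbered libraries correlated at 0.045, 0.038 and -0.03 in their deviations from the group means over all tested genes. That shows no pairing by number over the whole table, but does not settle it for single genes. The fit with the replicate block gave 0 of the 10 genes higher and 1 lower, with Rag1 at -0.86, and 7 and 9 companion genes. With the block the standard error of Rag2 was 0.125, against 0.243 without it (edgeR adjusted p = 0.133 with the block). For Dntt it was 0.0789 against 0.128 (edgeR adjusted p = 0.11 with the block). The standard error was larger with the block for Prkdc, Lig4, Xrcc4 and Xrcc5.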
